A study of Mus musculus with 6 samples.

Results

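The chemokine genes described here are 10 genes measured in sorted basal cells of the mammary epithelium of mice: Cxcl1, Cxcl2, Cxcl3, Cxcl5, Cxcl12, Cxcl14, Cxcl16, Ccl2, Ccl7 and Ccl20. They were picked by gene symbol, and all 10 were found among the 23337 genes in the count files. The set is not the most abundant chemokines of these cells. Ccl20 had 2 to 19 counts per library, and the more abundant Cx3cl1 was not among the 10. The cells came from mice 15 weeks old on a 129/Sv X C57BL/6 background, either wild type (Vimwt/wt, 2 libraries) or homozygous for the vimentin knockout allele (Vimtm1Cba/tm1Cba, 4 libraries). They were unpassaged cells sorted from digested glands as live cells without CD45 or CD31, low for CD24 and high for CD49f, and each library pooled 2 to 3 mice, so the spread between libraries is not that between single mice. The labels report 2 independent isolations, and the date within each count file's name was read as the isolation: experiment 1 held wild type 1 with knockout 1 and knockout 2, and experiment 2 held wild type 2 with knockout 3 and knockout 4. The allele is inherited through the germline, so the other cells of the gland carried it too.

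Chemokines are small secreted proteins that bind heparan sulfate on matrix and cell surfaces and steer leukocytes through G protein-coupled receptors. Cxcl1, Cxcl2, Cxcl3 and Cxcl5 attract neutrophils through Cxcr2, Cxcl12 acts through Cxcr4 and the scavenger Ackr3, Ccl2 and Ccl7 attract monocytes through Ccr2, and Ccl20 attracts Ccr6-bearing lymphocytes and dendritic cells. Cxcl16 is made as a membrane protein that is shed and binds Cxcr6, while Cxcl14 is an epithelial chemokine that is made constitutively. The neutrophil chemokines are textbook targets of NF-kB, the transcription factor that answers interleukin-1 and tumour necrosis factor.

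Cxcl1, Cxcl2 and Cxcl3 lie in the same cluster on chromosome 5, and their promoters are shown because the 3 genes carry the same NF-kB-type letters. RefSeq promoters of build GRCm38.p6 were given for 6 of the 10 genes. Below are the 200 bases before the start of Cxcl1, Cxcl2, Cxcl3 and, for contrast, Cxcl12. Capitals mark matches to an NF-kB-type motif (GGG, any 3 bases, then TTCC) on either strand, where matches may overlap.
Cxcl1, chr5:90891045-90891244, plus strand: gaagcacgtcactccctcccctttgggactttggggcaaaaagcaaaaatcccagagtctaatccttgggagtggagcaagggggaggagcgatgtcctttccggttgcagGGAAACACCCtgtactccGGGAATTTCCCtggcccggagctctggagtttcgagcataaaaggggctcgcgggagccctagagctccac
Cxcl2, chr5:90903699-90903898, plus strand: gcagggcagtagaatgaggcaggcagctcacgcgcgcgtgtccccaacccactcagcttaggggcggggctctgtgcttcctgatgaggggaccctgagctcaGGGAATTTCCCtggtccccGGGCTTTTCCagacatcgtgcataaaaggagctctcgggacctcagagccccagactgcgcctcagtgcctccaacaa
Cxcl3, chr5:90785901-90786100, plus strand: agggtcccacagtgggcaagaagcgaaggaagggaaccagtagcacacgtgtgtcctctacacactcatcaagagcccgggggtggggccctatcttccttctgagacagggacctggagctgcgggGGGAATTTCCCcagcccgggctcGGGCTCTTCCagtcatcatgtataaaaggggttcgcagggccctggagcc
Cxcl12, chr6:117168335-117168534, plus strand: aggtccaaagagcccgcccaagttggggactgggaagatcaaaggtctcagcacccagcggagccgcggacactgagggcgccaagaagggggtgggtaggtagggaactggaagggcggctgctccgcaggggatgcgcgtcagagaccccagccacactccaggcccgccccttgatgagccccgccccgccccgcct

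The longest run of letters that the first 3 promoters share was GGGAATTTCCC, 11 bases that match the motif on both strands. It lay 71 to 61 bases before the start in Cxcl1, 97 to 87 in Cxcl2 and 73 to 63 in Cxcl3. Both Cxcl2 and Cxcl3 held 1 more match nearer to the start, at 78 to 69 and 50 to 41 bases, and Cxcl1 held 1 farther away, at 89 to 80. In the 250 bases before the start, 4.65% of 32851 RefSeq promoters held the motif and 0.0426% held the 11-base run. The run was taken from these 3 promoters before its share was counted, so that low share is no independent evidence. Ccl20 held 1 match, at 80 to 71 bases before its start, and none was found in the windows of Cxcl12 and Cxcl14. A looser form (GGG, any 5 bases, then CC) was in 45.8% of all promoters. With overlapping matches counted, Cxcl12 held 1 of that form, Cxcl14 0, Ccl20 4, and Cxcl1, Cxcl2 and Cxcl3 held 4, 3 and 5. The letters TGANTCA, an AP-1-type motif, were in none of the 6 windows and in 6.75% of all promoters. A match is a description of the letters and shows no binding.

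Library totals ran from 25347967 to 31200622 counts. Vim was lower in 4 of 4 knockout libraries (edgeR log2 ratio of knockout to wild type -1.12, SE 0.12, adjusted p = 0.019). Basal markers summed to 20150 and 20940 CPM (the count as a share of its TMM-scaled library) in wild type and 17960 to 21240 CPM in knockout, with all 10 of 10 detected in every library. Luminal markers, the largest of the non-basal sums, stood at 2319 and 2396 CPM in wild type and 2271 to 2593 in knockout, all 12 detected throughout. Leukocyte markers summed to 29.25 to 30.99 CPM in wild type and 20.8 to 33.55 in knockout, and 7 of 14 were at 0 in at least 1 library, among them Ptprc, which encodes CD45. Fibroblast markers summed to 138 to 158 CPM in wild type and 104 to 140.3 in knockout, all 10 detected throughout. Endothelial markers stood apart by genotype: all 12 were detected in every library, and their sum was 213.5 CPM in wild type 1, 92.9 in wild type 2 and 34.9 to 52.2 in knockout. Adipocyte markers did so too, with a sum of 42.9 CPM in wild type 1, 11.8 in wild type 2 and 6.10 to 9.29 in knockout. Nearly all of that sum was Fabp4, which capillary endothelium also expresses (42.7, 11.5 and 5.19 to 8.49 CPM), while Adipoq had 1 to 8 counts per library and 4 of 7 were at 0 in at least 1 library. Pericyte markers summed to 53.5 and 32.9 CPM in wild type and 29.6 to 42.9 in knockout, with 2 of 8 at 0 in at least 1 library.

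Among the 10 chemokines, Cxcl2 and Cxcl12 rose in the knockout when each experiment was compared within itself, about 2.2-fold each, and none fell. By genotype alone 0 of the 10 were called by edgeR (all 10 passed the low-count filter), where 0.079% of 13925 tested genes were called (0.0575% higher and 0.0215% lower), and 8.57% had an unadjusted p under 0.05, against 3 of the 10 (Cxcl12, Cxcl14 and Ccl7). DESeq2 by genotype alone called 0 of the 10 as well, where it called 261 of 13925 tested genes. With the experiment as a block 2 of the 10 were called, both higher, where 1.56% of genes were called and 1.12% were called higher. In that fit 5 of the 10 had an unadjusted p under 0.05, against 13.6% of tested genes. The 10 had a median log2 ratio of 0.57, or 0.54 with the block, beside -0.01 over all tested genes in both fits. Each of the 4 knockout libraries lay above the wild-type value from the same isolation for Cxcl1, Cxcl2, Cxcl12, Cxcl14 and Cxcl16 (5 of 10, where 15.6% of tested genes did so) and below it for Ccl2 and Ccl7 (2 of 10, where 16.6% did so). The 2 knockout libraries of an experiment share their wild-type library, so these 4 differences are not independent. The 10 were chosen with earlier results of these libraries known, so their median and counts are no independent evidence of a direction. Leaving out either wild-type library ended the call of Cxcl2 in the blocked fit (adjusted p = 0.142 without wild type 1 and 0.0547 without wild type 2), and leaving out wild type 1 ended that of Cxcl12 (0.137). In bulk RNA, fewer cells of a type and less RNA per cell cannot be told apart.

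**Figure D1:**
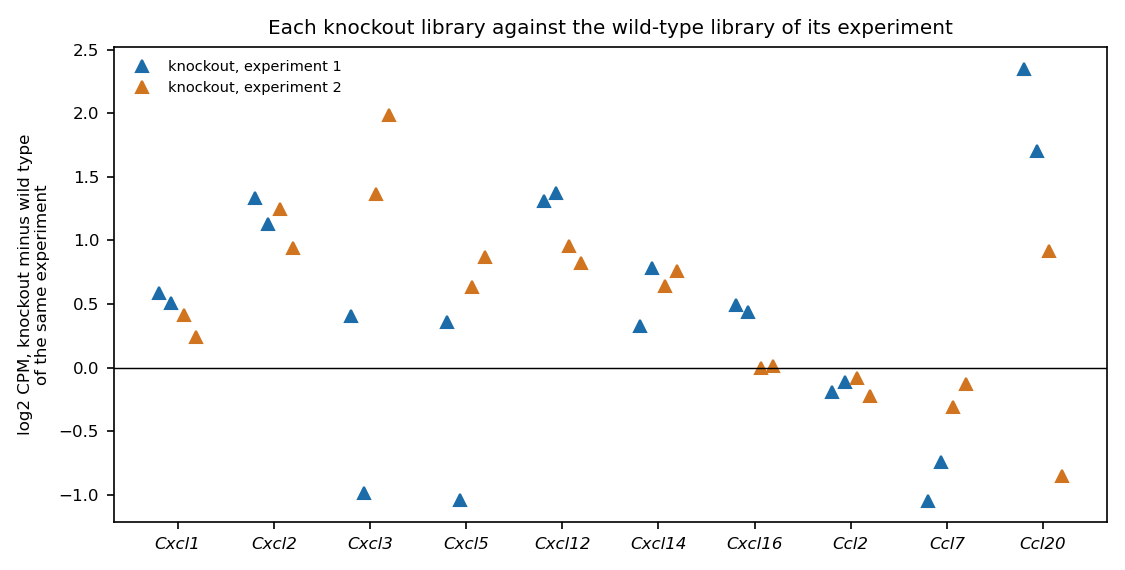
The 10 chemokine genes stand on the x axis, and the y axis gives log2 CPM (prior count 2) of each knockout library minus that of the wild-type library of the same experiment, blue for experiment 1 and orange for experiment 2. All 4 points lie between 0.94 and 1.33 for Cxcl2 and between 0.82 and 1.37 for Cxcl12, while those of Cxcl3, Cxcl5 and Ccl20 lie on both sides of 0.

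Per length, the 10 genes covered more than 3 orders of magnitude. Cxcl14 and Cxcl1 were the top pair in all 6 libraries, with mean levels of 853 and 752 CPM per kb of exon. With Cxcl12 they made up 87.5% to 90.0% of the summed CPM per kb of the 10 genes. Cxcl14 led in 5 libraries and Cxcl1 in wild type 2, where they stood at 676 and 770.2 CPM per kb. Cxcl2 (mean 88.7 CPM per kb), Cxcl16 (84.3) and Cxcl12 (73.5) changed places between libraries and did not differ beyond their spread. Ccl2 followed at 35.8 CPM per kb, then Ccl7 at 8.81, Cxcl5 at 3.86, Cxcl3 at 1.66 and Ccl20 at 0.41, in that order in all 6 libraries but for Ccl2, which stood above Cxcl2 and Cxcl12 in wild type 1. The length is the sum of all annotated exons, 7161 bases for Cxcl12 and 799 to 2448 for the others, so a gene with alternative ends can be placed too low. The share of all counts taken by the 10 genes was 0.197% and 0.261% in wild type and 0.281% to 0.416% in knockout.

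**Figure D2:**
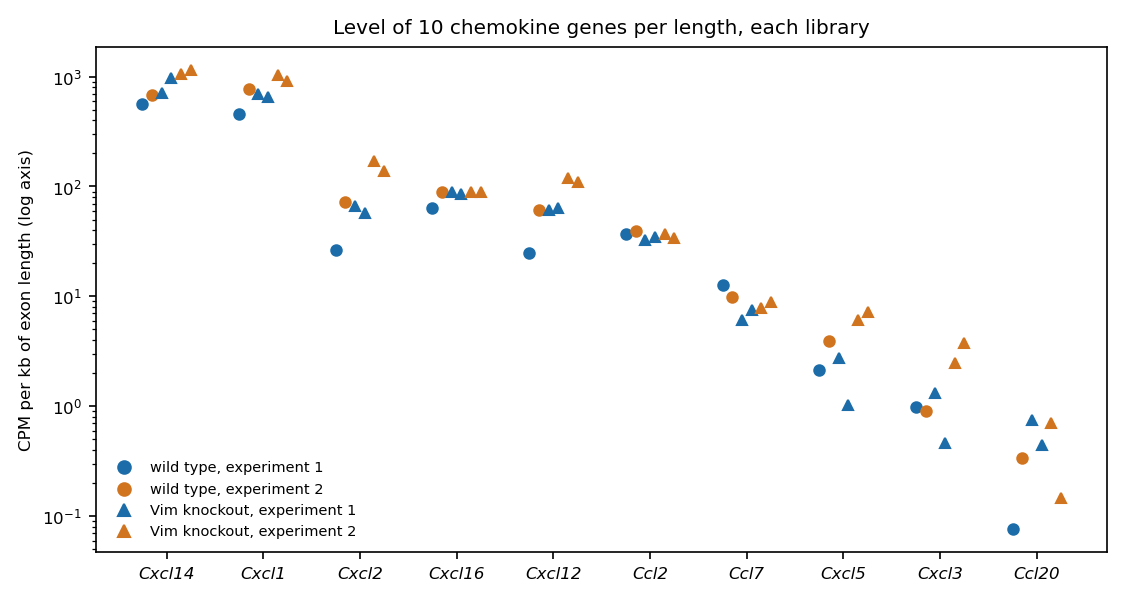
The y axis, a log axis, gives the level in CPM per kb of exon length of each chemokine gene on the x axis, with 1 point per library, circles for wild type, triangles for knockout and colours for the experiment. Cxcl14 and Cxcl1 lie near 1000, Cxcl2, Cxcl16 and Cxcl12 form a middle group, and Ccl20 lies below 1 in every library.

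The neutrophil chemokines were led by Cxcl1 (chromosome 5, positions 90891245 to 90893115, mm10). It reached 437 and 731 CPM in wild type 1 and 2 and 654.5 (knockout 1), 622 (knockout 2), 973 (knockout 3) and 862 CPM (knockout 4). Wild type 1 was the lowest library and the groups overlapped, since wild type 2 lay above both knockout libraries of experiment 1. The means were 584 ± 208 CPM (SD, n = 2) and 778 ± 168 CPM (SD, n = 4), a log2 ratio of 0.41 (SE 0.26, edgeR adjusted p = 0.763), or 0.44 (SE 0.11, adjusted p = 0.0958) with the block. Without knockout 1 the blocked fit called it (adjusted p = 0.0441), and without wild type 1 its log2 fold change by genotype alone was 0.11.

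Cxcl2 (90903899 to 90905938) moved along the same order of libraries over a wider range. It stood at 28.6 and 78.1 CPM in wild type 1 and 2, and at 72.0, 62.5, 185.6 and 149.9 CPM in knockout 1 to 4. The 2 knockout libraries of experiment 2 were the highest, those of experiment 1 lay just under wild type 2, and wild type 1 was far below the rest. Against the wild type of the same experiment the ratios were 2.52, 2.19, 2.38 and 1.92. The log2 fold change was 1.14 (SE 0.54, edgeR adjusted p = 0.626) by genotype alone and 1.17 (SE 0.12, adjusted p = 0.00254) with the block. Omitting wild type 1 gave 0.61 by genotype alone, and omitting wild type 2 gave 2.04. Per length, Cxcl1 was 17.4 times as abundant as Cxcl2 in wild type 1, 10.7 times in wild type 2 and 5.98 to 11.4 times in the knockout libraries.

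Cxcl3 (90786103 to 90788090) and Cxcl5 (90759299 to 90761625), the low members of the cluster, were called neither by genotype nor between experiments. Cxcl3 was counted 33 and 24 times for wild type 1 and 2 against 43, 12, 74 and 98 times for knockout 1 to 4 (95% Poisson interval of the 12 counts 6.20 to 21.0, counting error only). Knockout 2 was the lowest library and knockout 3 and 4 the highest, so the groups overlapped. Its log2 fold change was 1.08 (SE 0.71, edgeR adjusted p = 0.794), or 0.79 (SE 0.56, adjusted p = 0.626) with the block. Cxcl5, an epithelial chemokine known from inflamed lung and gut, stood at 3.56 and 6.47 CPM in wild type and at 4.59, 1.70, 10.1 and 11.9 CPM in knockout 1 to 4. Knockout 2 was again the lowest library and knockout 3 and 4 the highest. Its log2 fold change was 0.50 (SE 0.67, edgeR adjusted p = 0.946), or 0.31 (SE 0.38, adjusted p = 0.819) with the block. In GENCODE M21 transcripts, 5.84% of the 50-base windows of Cxcl2 were identical to Cxcl3 and 4.29% of those of Cxcl3 were shared with other genes, Cxcl2 among them. Reads that fit more than 1 place were left out of the counts, so the values of both genes are uncertain to that extent. No window of Cxcl1 was shared with another gene.

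**Figure D3:**
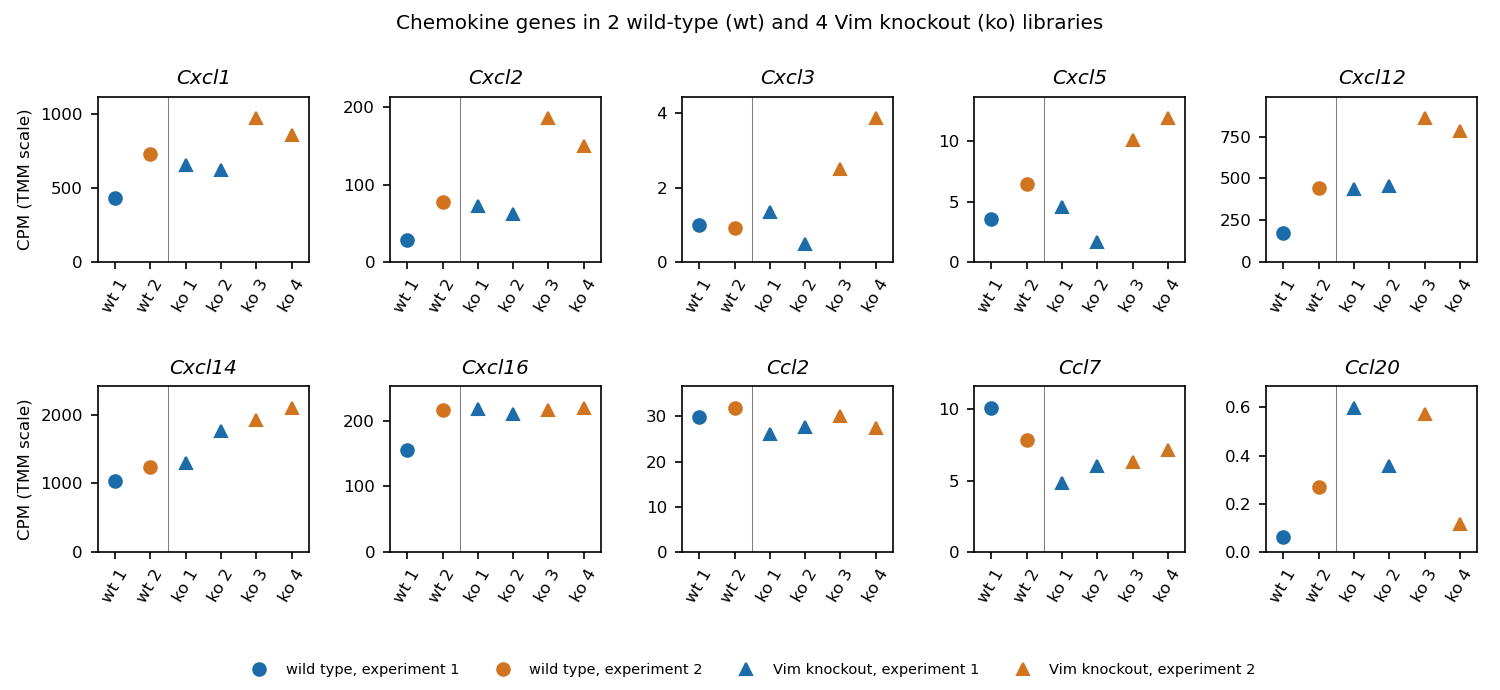
Each panel gives 1 chemokine gene in CPM on its own axis from 0, with the 2 wild-type libraries (wt, circles) left of the line and the 4 knockout libraries (ko, triangles) right of it, blue for experiment 1 and orange for experiment 2. Cxcl14 is the gene whose 4 knockout libraries all lie above both wild-type libraries and Ccl7 the gene whose 4 all lie below.

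Cxcl12 (chromosome 6, 117168535 to 117181368), which retains leukocytes and haematopoietic cells through Cxcr4, stood at 177 and 442 CPM in wild type 1 and 2. In knockout 1 to 4 it stood at 437.5, 457, 859.9 and 783 CPM. Within experiment 1 knockout 1 and 2 were 2.47 and 2.58 times wild type 1, and within experiment 2 knockout 3 and 4 were 1.94 and 1.77 times wild type 2. Across experiments wild type 2 was level with knockout 1 and 2, so the groups overlapped. The log2 fold change was 1.04 (SE 0.42, edgeR adjusted p = 0.544) by genotype alone and 1.11 (SE 0.13, adjusted p = 0.00378) with the block. It was 0.54 without wild type 1 by genotype alone and 1.84 without wild type 2. Cxcl12 is also made by fibroblasts and endothelium. Of the fibroblast markers, Col1a2, Col3a1 and Dcn had log2 ratios of -0.24, -0.47 and -0.11 and none was called, and the endothelial sum was below that of both wild-type libraries in 4 of 4 knockout libraries. The part of other cell types in the Cxcl12 result was not tested.

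Cxcl14 (chromosome 13, 56288643 to 56296551, minus strand) was the most abundant of the 10. It stood at 1029 and 1235 CPM in wild type and at 1294, 1768, 1926 and 2098 CPM in knockout 1 to 4. All 4 knockout libraries lay above both wild-type libraries, a pattern that 7.6% of tested genes showed, and knockout 1 lay close to wild type 2. The means were 1132 ± 145 CPM (SD, n = 2) and 1772 ± 345 CPM (SD, n = 4), a log2 ratio of 0.65 (SE 0.21, edgeR adjusted p = 0.388), or 0.64 (SE 0.14, adjusted p = 0.0609) with the block. It was called in the blocked fit without knockout 1 (log2 fold change 0.75, adjusted p = 0.00249).

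Cxcl16 (chromosome 11, 70454234 to 70459984, minus strand) was the steadiest CXC chemokine. Wild type 1 stood at 155 CPM, wild type 2 at 217 and the 4 knockout libraries between 211 and 219.8. It was therefore wild type 1 that stood apart, and wild type 2 was level with the knockout. The log2 fold change was 0.22 (SE 0.14, edgeR adjusted p = 0.788), or 0.23 (SE 0.12, adjusted p = 0.435) with the block, and by genotype alone it was 0.02 without wild type 1. Within experiment 1 the mean difference was 0.47 on the log2 scale and within experiment 2 it was 0.01; the test of that difference gave -0.46 (SE 0.18, edgeR interaction adjusted p = 0.998, unadjusted p = 0.0334), in a comparison where 4.21% of genes had an unadjusted p under 0.05 and 0% were called. Of its 50-base transcript windows, 16.9% overlap Zmynd15 on the other strand, and the counting used strand.

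None of the 3 CC chemokines was called in either fit; the values of Ccl2 and Ccl7 were below 0 and that of Ccl20 above 0. Ccl2 (chromosome 11, 82035577 to 82037452), the main monocyte attractant, had the smallest spread of the 10 genes. It stood at 29.9 and 31.9 CPM in wild type and at 26.2, 27.7, 30.1 and 27.4 CPM in knockout 1 to 4, and its highest library was 1.22 times its lowest. The log2 fold change was -0.15 (SE 0.12, edgeR adjusted p = 0.855), or -0.15 (SE 0.11, adjusted p = 0.644) with the block.

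Ccl7 (82045712 to 82047523), the neighbour of Ccl2 and a ligand of the same receptor, stood at 10.1 and 7.85 CPM in wild type and at 4.84, 6.01, 6.32 and 7.16 CPM in knockout 1 to 4. All 4 knockout libraries lay below both wild-type libraries, as for 8.57% of tested genes. The means were 8.96 ± 1.57 CPM (SD, n = 2) and 6.08 ± 0.96 CPM (SD, n = 4), a log2 ratio of -0.56 (SE 0.21, edgeR adjusted p = 0.51), or -0.57 (SE 0.21, adjusted p = 0.237) with the block. The log2 differences within experiment 1 were -1.05 and -0.74 and those within experiment 2 were -0.31 and -0.13. Endothelial markers were lower in the same libraries, with a median log2 ratio of -1.98. Of the 12, 0 had a positive log2 ratio, where 6626 of 13925 tested genes did. DESeq2 by genotype alone called 9 of 12, where it called 261 of 13925 tested genes. By edgeR 1 was called lower (Sele), where 0.0215% of tested genes were. Wild type 1 was highest for both Ccl7 and the endothelial sum. Pecam1 had a log2 ratio of -1.97 (SE 0.39, edgeR adjusted p = 0.181) and Sele one of -1.64 (SE 0.18, adjusted p = 0.0218). Among the knockout libraries the endothelial sum was 34.9, 52.2, 48.7 and 40.7 CPM, an order that Ccl7 did not follow. Darc, 1 of these 12 markers, had the same order as Ccl7, at 3.02, 4.9, 6.08 and 7.67 CPM in knockout 1 to 4. It was the gene most like Ccl7 among 2178 (r = 0.987), so it was picked by its values and does not stand for the 12. Fabp4 was also lower in the knockout libraries and highest in wild type 1. The part of endothelial RNA in the Ccl7 result was not tested.

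Ccl20 (chromosome 1, 83116766 to 83119167) was near the limit of detection, with 2 and 7 counts for wild type 1 and 2 against 19, 9, 17 and 3 for knockout 1 to 4. The 95% Poisson interval (counting error only) was 0.242 to 7.22 for wild type 1 and 0.619 to 8.77 for knockout 4. These 2 libraries were thus not told apart at this depth. The intervals of knockout 1 (11.4 to 29.7) and knockout 3 (9.9 to 27.2) lay above both. Those of wild type 2 (2.81 to 14.4) and knockout 2 (4.12 to 17.1) overlapped all the others. The log2 fold change was 1.37 (SE 0.84, edgeR adjusted p = 0.762), or 1.40 (SE 0.85, adjusted p = 0.546) with the block.

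Cxcl1, Cxcl2 and Cxcl12 also differed between the experiments. Tested with genotype in the model, 3 of the 10 rose in experiment 2 against experiment 1 and none fell, where 6.43% of genes were called, 3.39% higher and 3.04% lower. Cxcl2 had a log2 difference of 1.36 (SE 0.11, edgeR adjusted p = 6.89e-04), Cxcl12 one of 1.02 (SE 0.12, adjusted p = 0.00283) and Cxcl1 one of 0.60 (SE 0.11, adjusted p = 0.0127). Cxcl5 (1.48, SE 0.36, adjusted p = 0.0544) and Cxcl3 (1.19, SE 0.51, adjusted p = 0.198) were not called. The experiment and genotype differences were thus of like size for Cxcl12 and Cxcl2, and wild type 2 was 2.5 and 2.73 times wild type 1 for these genes. The remaining 5 had log2 differences from 0.08 to 0.35 and were not called. Cxcl1 was no longer called when either wild-type library, knockout 3 or knockout 4 was omitted, while Cxcl2 and Cxcl12 were called whichever library was left out. The test of whether the genotype effect differed between experiments called 0 of the 10 by edgeR, with 1 at an unadjusted p under 0.05, and 0 genes in all, though 203 genes without knockout 1, Cxcl5 among them, and 371 without knockout 2. Leaving out 1 library moved the number of genes that differed between experiments from 895 to between 38 (without wild type 1) and 1838 (without knockout 1). It was 42, 482 and 120 when wild type 2, knockout 3 or knockout 4 was omitted.

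**Figure D4:**
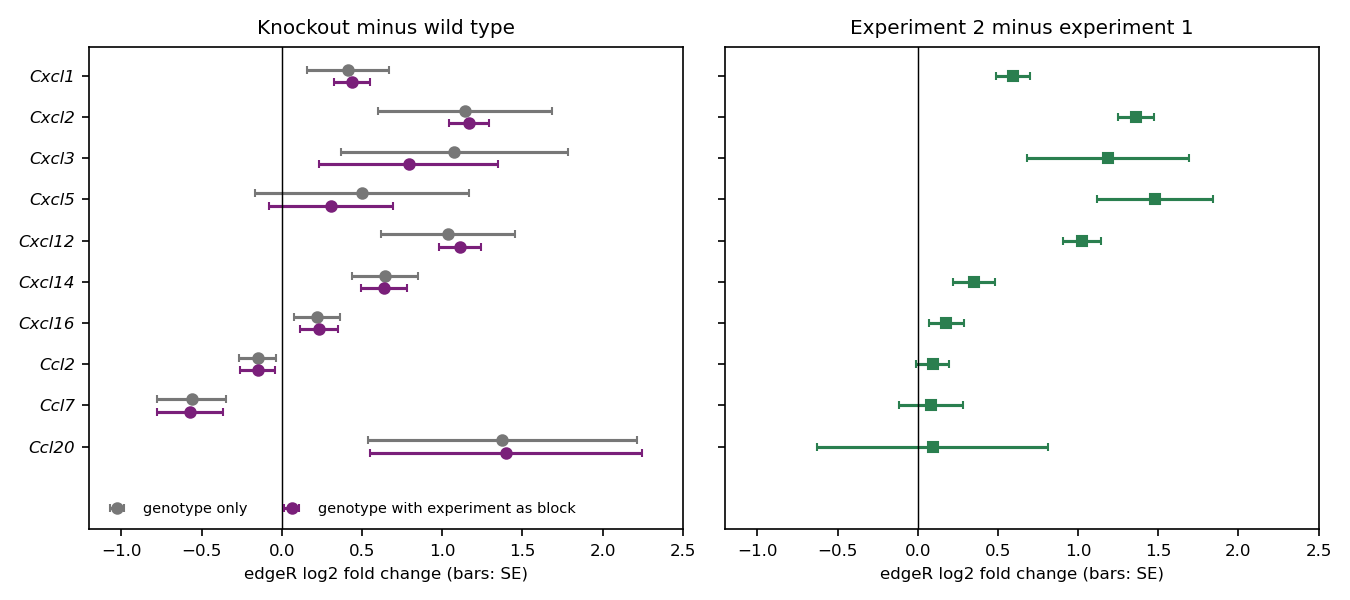
The left panel gives the log2 fold change (knockout minus wild type) for each chemokine gene by genotype alone (grey) and with the experiment as a block (purple), and the right panel gives that of experiment 2 minus experiment 1 with genotype in the model; bars are standard errors from edgeR. The bars of Cxcl2 and Cxcl12 shorten with the block, from 0.54 to 0.12 and from 0.42 to 0.13, while the values stay near 1.1.

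None of the other chemokine genes passed the edgeR test. Of 28 such genes, 14 were tested and 0 were called in either fit. DESeq2 by genotype alone called 1 of the 14, where it called 261 of 13925 tested genes. An unadjusted p under 0.05 was found for 3 in each fit, against 8.57% and 13.6% of tested genes. The 14 had a median of -0.04, with 7 above and 7 below 0. For 2 of 14 all 4 knockout libraries lay above their own wild type, as for 15.6% of tested genes. The most abundant was Cx3cl1, a membrane-bound chemokine, at 308 CPM on average (log2 fold change 0.24, SE 0.17, edgeR adjusted p = 0.814). For Ccl11, an eosinophil attractant, the counts were 1139 in wild type 1, 186 in wild type 2 and 129 to 152 in the 4 knockout libraries (log2 fold change -2.02, SE 0.49, adjusted p = 0.266), a value set by wild type 1: without it the blocked log2 fold change was -0.37. The interferon-induced Cxcl10 had one of 0.31 (SE 0.29, adjusted p = 0.907).

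Most receptor genes were too low to test. Of 23 receptor genes 7 were tested and 0 were called by edgeR in either fit. DESeq2 by genotype alone called 1 of the 7, where it called 261 of 13925 tested genes. By genotype alone 3 and with the block 4 had an unadjusted p under 0.05, against 8.57% and 13.6% of tested genes. The 7 had a median of -0.42, with 1 above 0. Cxcr2, the receptor of the neutrophil chemokines, had 1 to 3 counts per library, Ccr2 0 to 3, Ccr6 0 to 2, and Cxcr6 0 in all 6. The most abundant was Cxcr7, the older symbol of Ackr3, which takes up Cxcl12. Its counts were 3966 and 4337 for wild type against 2751, 2071, 3572 and 3596 for knockout 1 to 4, below its own wild type in 4 of 4 (log2 fold change -0.42, SE 0.24, edgeR adjusted p = 0.732, or 0.0699 with the block). Darc, the older symbol of the venular scavenger Ackr1, which binds Cxcl1, Ccl2 and Ccl7, had a log2 ratio of -1.77 (SE 0.34, adjusted p = 0.176, or -1.84 and 0.0549 with the block). In the blocked fit it was -1.02 and not called without wild type 1, and it was called without wild type 2 (adjusted p = 0.03) and without knockout 1 (0.012). Ccrl1, now Ackr4, had one of -0.67 (SE 0.26, adjusted p = 0.512).

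Some genes of the NF-kB pathway rose in the knockout with the block. The list held 20 genes, all tested, for NF-kB subunits, inhibitors, kinase subunits and targets of the pathway. By genotype alone edgeR called 0 of them (6 at an unadjusted p under 0.05). DESeq2 by genotype alone called 1 of the 20, where it called 261 of 13925 tested genes. With the block 5 rose by edgeR, the inhibitors Nfkbia, Nfkbie and Tnfaip3, the subunit Relb and the survival gene Birc3. The 20 had a median log2 fold change of 0.45, and 14 of 20 lay above their own wild type in all 4 knockout libraries, where 15.6% of tested genes did so. Over all tested genes, 8.57% had an unadjusted p under 0.05 by genotype alone and 1.12% were called higher with the block. With the block, Nfkbie (log2 fold change 0.88, edgeR adjusted p = 0.0161), Tnfaip3 (0.88, adjusted p = 0.0119) and Nfkbia (0.86, SE 0.13, adjusted p = 0.0139) had values of like size. The values of Relb (0.52, adjusted p = 0.0335) and Birc3 (0.54, adjusted p = 0.032) were smaller. The number called in the blocked fit ran from 0 without either wild-type library and 1 without knockout 4 to 10 without knockout 1. In experiment 2 against experiment 1, 7 of the 20 were higher and 1 lower, where 3.39% and 3.04% of tested genes were. This list was drawn up with earlier results of these libraries known and is no independent evidence of its direction.

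Of 26 genes for cytokines, growth factors, their receptors and signalling adaptors, not all of them inducers of chemokines, 25 were tested, with a median of 0.06. By genotype alone 0 were called by edgeR and 6 had an unadjusted p under 0.05, against 8.57% of tested genes. DESeq2 by genotype alone called 1 of the 25, where it called 261 of 13925 tested genes. With the block 3 rose, where 1.12% of tested genes were called higher. The 3 were Csf3, the neutrophil growth factor G-CSF (log2 fold change 0.93, adjusted p = 0.00959), Lif (0.71, adjusted p = 0.0155) and the interleukin-17 receptor chain Il17rc (0.58, adjusted p = 0.0415), by edgeR. Csf3 counts were 4490 and 6988 for wild type against 9041, 6604, 12673 and 14120 for knockout 1 to 4, above its own wild type in 4 of 4. The upstream cytokines Tnf and Il1b had log2 ratios of 0.48 (adjusted p = 0.602) and -1.33 (adjusted p = 0.48), the latter at 7 to 49 counts. Csf3 was not called in the blocked fit without wild type 1 or wild type 2, Lif without those or knockout 4, and Il17rc without those, knockout 3 or knockout 4.

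Of 10 genes for factors that bind or cut chemokine mRNA, 0 were called by edgeR in either fit and 0 by DESeq2 by genotype alone. By genotype alone 0 and with the block 1 had an unadjusted p under 0.05, against 8.57% and 13.6% of tested genes. These genes had a median of 0.00. The most abundant, Zfp36, Zfp36l1 and Zfp36l2, had log2 ratios of 0.01, -0.20 and -0.10. Of 25 immediate early and dissociation genes, which can rise while tissue is digested, 0 were called by genotype alone by edgeR. DESeq2 by genotype alone called 1 of the 25, where it called 261 of 13925 tested genes. An unadjusted p under 0.05 by edgeR was found for 3, against 8.57% of tested genes. Dusp5 rose with the block (log2 fold change 0.99, edgeR adjusted p = 0.00461), where 1.12% of tested genes were called higher. The median of the 25 was 0.08. Of the 25, 16 had a log2 ratio above 0. All 4 knockout libraries lay above both wild-type libraries for 4 of the 25 and below both for 1, where 7.6% and 8.57% of tested genes did so. Fos and Egr1, the classic dissociation genes, had log2 ratios of 0.00 and -0.18 and were not called. The part of dissociation in the chemokine results was not tested.

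**Figure D5:**
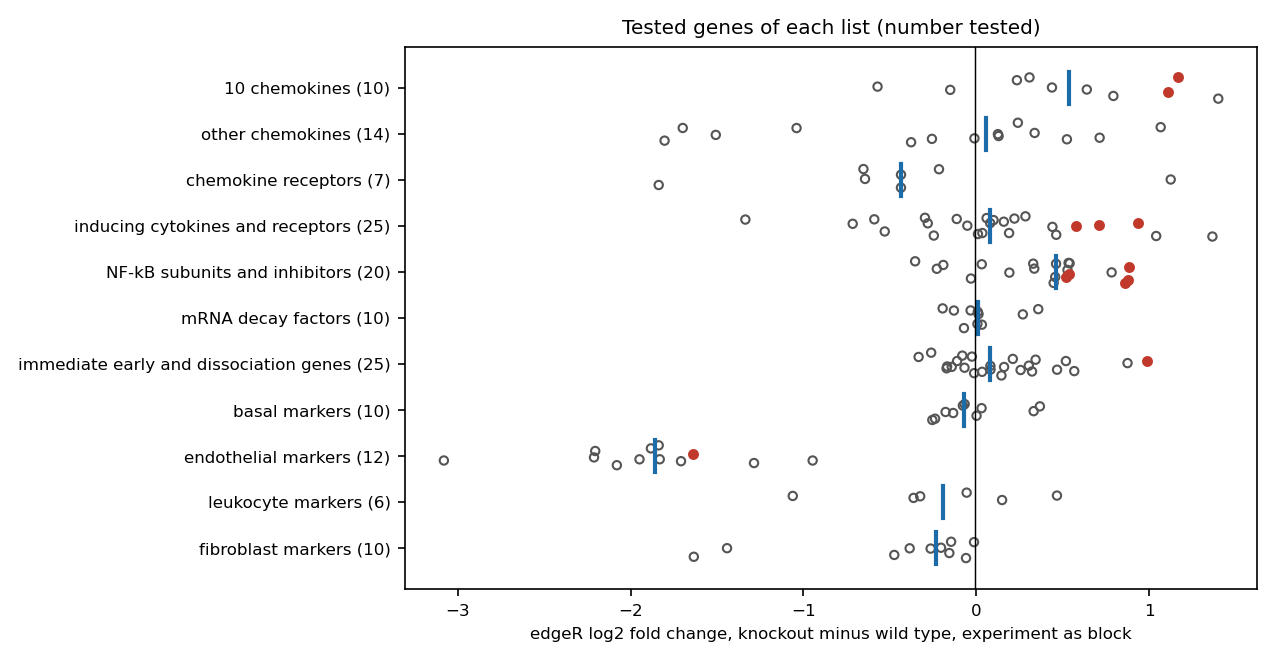
Each row is a gene list with its number of tested genes, and the x axis gives the log2 fold change (knockout minus wild type) from the fit with the experiment as a block; red points passed an adjusted p of 0.05, blue bars are medians and the black line is the median of all tested genes. The 10 chemokines and the NF-kB list have medians of 0.54 and 0.46, and the endothelial markers lie below 0. The NF-kB row also holds kinase subunit and target genes of the pathway, and the cytokine row also holds adaptor genes and an antagonist gene.

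Across the 6 libraries the profiles of Cxcl1, Cxcl2 and Cxcl12 were nearly parallel (Pearson r of log2 CPM 0.99 for Cxcl1 with Cxcl2, 0.98 for Cxcl1 with Cxcl12 and 0.98 for Cxcl2 with Cxcl12, n = 6 libraries that share genotype and experiment). Cxcl3 followed Cxcl5 (r = 0.92), and Ccl2 had r = 0.01 with Cxcl1. Among 2178 other genes with mean log2 CPM of at least 2 and an SD of at least 0.3, the most like Cxcl1 were Col12a1 (r = 0.998) and Nrarp (0.998). Those most like Cxcl2 were Kctd12 and Nrarp (both 0.991), and those most like Cxcl12 were Lif (0.993) and Tpbg (0.993). Cxcl14 was most like Slpi, a secreted protease inhibitor (0.997), and Fam110a (0.994). Cxcl16 was most like the macrophage growth factor gene Csf1 (0.992), which stood at 575 CPM in wild type 1 and 1010 to 1180 in the other 5 libraries, and Irf5 (0.971). Cxcl5 was most like Crabp2 (0.988) and Cpm (0.983), and Cxcl3 most like the interferon-induced GTPase genes Irgm2 (0.971) and Gbp3 (0.96). Ccl7 was most like Darc (0.987) and Cd36 (0.985), both known from endothelium. The best matches of Ccl2 were Slc1a5 (0.952) and Rapgef3 (0.91), and those of Ccl20 were Arhgap20 (0.862) and Igfbp2 (0.828). With 6 points such values are common: 58 genes had r over 0.95 with Cxcl1 and 75 with Cxcl12.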

How the data were processed

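The 6 libraries (2 wild type, 4 knockout) hold mRNA of sorted basal cells. The authors deposited raw counts per gene, made with featureCounts 1.5.1 over exons of the UCSC mm10 annotation, with strand option 2 and without multi-mapped or multi-overlapping reads, per the file headers. The submitters' processing notes name bcl2fastq 2.17, STAR 2.5.2b and Subread 1.5.1. Exon lengths in bases, another column deposited by the authors, were used for CPM per kb.

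Counts were tested with edgeR 4.0.16 in R 4.3.3: filterByExpr (13925 genes kept), TMM, glmQLFit (robust) and glmQLFTest, 2-sided, with Benjamini-Hochberg adjusted p under 0.05 as a call and all adjustment over the whole table. Log2 CPM used a prior count of 2, and SEs were taken from the F statistic. Genotype was the only term of the main fit; the day code of the file names was a block in a further fit. Deviations from group means correlated at 0.25 to 0.41 within experiments, so the experiment was taken to pair libraries, although with 2 wild-type libraries these values mirror each other. Levels at 25347967 to 31200622 counts per library carry little counting error except for Cxcl3 and Ccl20, and for Cxcl5 in knockout 2, at 43 counts. Nothing in the labels says more about replicates than pooled mice, so p-values measure the spread between pools. DESeq2 1.42.0, RLE size factors, other filters and leaving out each library were the alternatives. The fits were also run on simulated data. For the genotype-only fit these held no difference between experiments, so they do not stand for that fit in these libraries.

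The members and lists were chosen with earlier results of these data known. Named from each list were genes called in either fit or, where there were none, the 3 most abundant; other names were chosen after their values were seen. Likeness took the 2 best-correlated genes, predicted genes left out. Older symbols were matched through RefSeq synonyms. Protein sequences were not used here.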

Additional observations from a re-analysis of the deposited data

How the results depend on the processing

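Of 195 values of the 10 genes under the alternatives, 191 kept their direction. With the replicate block by experiment 217 genes and 2 of the 10 were called against 11 and 0 by genotype alone; with RLE factors in that fit 231 and 2, and with DESeq2 in it 676 and 4 (Cxcl1, Cxcl2, Cxcl12, Cxcl14). DESeq2 by genotype alone called 261 genes. A replicate block by the number in the sample titles, which did not pair the libraries (r = 0.32 and -0.29), called 17 genes, with reversed log2 fold changes for Cxcl3 (-0.19), Cxcl5 (-0.735), Zfp36 (-0.02) and Zfp36l2 (0.11). Leaving out 1 library gave 3 (without knockout 3) to 15 genes (without knockout 1), with 4 when wild type 1 and 5 when knockout 2 or 4 was omitted, and 0 of the 10 each time. In the fit with the replicate block it gave 4 (without wild type 1) to 940 genes (without knockout 1), with 34, 248, 138 and 66 genes when wild type 2, knockout 2, knockout 3 or knockout 4 was omitted, and 0 (without wild type 1) to 4 of the 10 (without knockout 1), 1 without wild type 2 and 2 otherwise. Without wild type 2 that fit gave -0.11 for Cxcl3 and -0.16 for Cxcl5. With single libraries left out, Zfp36 ran from -0.031 to 0.098 and Zfp36l2 from -0.227 to 0.002 by genotype alone; with the block, Zfp36 was -0.026, -0.056 and -0.042 without wild type 2, knockout 2 and knockout 3, and Zfp36l2 was 0.19 without wild type 2. The interaction test called 1 of the 10, Cxcl5, without knockout 1. The cause of these changes was not tested. The test of the experiments called 2 to 4 of the 10 as libraries were left out. Leaving out single libraries for that test and for the interaction, and all alternatives for list genes, were chosen after seeing the data. The interaction could not be fitted without a wild-type library. Depth limits Ccl20 and Cxcl3, and Cxcl5 in knockout 2. Ccl20 failed the filter in 5 of 20 alternatives.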

Other observations

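Some genes outside the 10 were named after their values were seen. Ccrl2, an atypical receptor that presents chemerin and is itself induced by inflammatory signals, was counted 104 and 93 times for wild type against 138, 166, 305 and 248 times for knockout 1 to 4, above both wild-type libraries in 4 of 4 (log2 fold change 1.20, SE 0.36, edgeR adjusted p = 0.362, or 1.12 and 0.0596 with the block). Cxcl15, a chemokine known from lung, was counted 306 and 33 times for wild type against 421, 136, 133 and 121 times for knockout 1 to 4, so the spread within each group exceeded the difference between them. Cxcl9, an interferon-induced T cell attractant, had 93 counts in wild type 1 and 4 to 22 in the other 5 libraries. Cxcr4, the signalling receptor of Cxcl12, had a log2 difference of -1.38 in experiment 2 against experiment 1 (edgeR adjusted p = 0.013), opposite in sign to Cxcl12.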
